A study of Mus musculus with 6 samples.

Results

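The Eph receptors, the ephrins, the Slits and Robos, and the netrins with their receptors DCC and UNC5 make up the classical short-range and long-range guidance systems of the nervous system. In mouse primary somatosensory (S1) cortex, 38 genes of these families were found by symbol among the 14824 genes listed: 9 EphA receptors, 5 EphB receptors, 5 ephrin-A ligands, 3 ephrin-B ligands, 3 Slits, 4 Robos, 5 netrins, and 4 genes of the DCC and UNC5 group. The families were looked at because Epha8 had been noticed for its change between the groups, so the values of Epha8 are given as a description, with no test. The study asked how whisker stimulation (WS) alters the developing S1 cortex, the area that receives touch signals from the whiskers, and measured it by bulk RNA-seq. The 3 NS libraries, whose labels read NW control with no treatment, came from S1 cortex that was not stimulated, and the 3 WS libraries from stimulated S1 cortex, with RNA taken 90 min after the last stimulation. In the study's whisker paradigm the whiskers of 1 side were brushed daily over several days, up to postnatal day 21. The barrel cortex of the unstimulated side of the same mouse served as the NS control. NS and WS libraries may thus come from the same animals, but which libraries share an animal is not named. All 6 came from wild-type mice at postnatal day 21, of a strain that the labels give as C57B6 and the study's methods as C57BL/6. The tissue was whole S1 cortex, in which fewer cells of a type and less RNA per cell cannot be told apart, and each p-value measures only the spread between these libraries. The replicates are described as separate male mice, and the labels do not say which animal each library came from. RNA integrity was required to exceed a number of 2, with no value given for each sample.

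Eph receptors are tyrosine kinases on the cell surface, and their ephrin ligands are held to the membrane of the neighbouring cell, so that contact between cells signals in both directions, usually with repulsion. Slits are secreted proteins that repel axons through Robo receptors, while netrins attract through DCC or repel through UNC5. In the cortex these systems are known for the map of thalamic axons in S1, for the branching of dendrites and the forming of spines, and, for a few members (Efnb2, Ephb4, Robo4), for blood vessels.

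The promoters of Epha8 and Epha7 are shown because Epha8 is the gene that drew attention to these families and Epha7, its relative on the same chromosome, is the only member whose WS libraries all lay below the NS libraries. Each run is the 250 bases before the transcription start (RefSeq, GRCm38.p6), written in the direction of the gene. For Epha8 it lies at chr4:136956817-136957066 on the minus strand, and for Epha7 at chr4:28812881-28813130 on the plus strand. Capitals mark GCGNGGGCG, the core bound by EGR factors, and ACGTG or GCGTG, the cores bound by HIF and other basic helix-loop-helix factors.
Epha8: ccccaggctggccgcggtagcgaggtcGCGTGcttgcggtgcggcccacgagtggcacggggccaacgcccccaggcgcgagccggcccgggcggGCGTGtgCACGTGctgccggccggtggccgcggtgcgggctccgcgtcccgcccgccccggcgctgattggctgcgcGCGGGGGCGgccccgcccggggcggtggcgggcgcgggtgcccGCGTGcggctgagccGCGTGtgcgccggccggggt
Epha7: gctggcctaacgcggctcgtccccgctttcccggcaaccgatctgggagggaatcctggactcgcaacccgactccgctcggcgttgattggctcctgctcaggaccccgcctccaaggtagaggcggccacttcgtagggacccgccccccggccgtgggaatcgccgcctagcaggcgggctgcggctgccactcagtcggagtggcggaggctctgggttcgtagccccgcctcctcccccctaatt
The Epha8 run was 84% G and C with 46 CpG dinucleotides, the most of the 33 members with a promoter in the reference table, whose median was 16, and the median over all 32851 promoters was 6. It held GCGNGGGCG 1 time, GCGTG 4 times and ACGTG 2 times, the last as both strands of the same 6-base palindrome. The Epha7 run was 69.2% G and C with 25 CpG, and none of the motifs searched occurred in it. Counted on both strands, GCGNGGGCG was in 4.7% of all promoters, ACGTG in 16.6%, GCGTG in 28.2%, the short form of the cAMP response element, TGACG, in 17.8%, the full element TGACGTCA in 1.55% and the AP-1 site TGANTCA in 6.75%. Of the 33 members with a promoter, 6 held GCGNGGGCG, 5 ACGTG, 11 GCGTG, 6 TGACG, 1 TGACGTCA and 0 TGANTCA. The median G and C content of these 33 promoters was 64%, against 52.4% over all promoters. Epha2 was the member with TGACGTCA. These matches are letters in the sequence, and no binding was measured here.

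Among the guidance genes other than Epha8, none passed a test between NS and WS cortex. For Epha8, chosen for its change, no test result is given. Epha8 was higher in every WS library than in any NS library, by 1.36-fold. Epha2 and Robo4 lay above their NS range in the WS libraries and Epha7 lay below it, with differences that did not pass a test. The receptors and ligands with the highest levels per length in S1 (Ephb6, Unc5a, Efnb3, Efna3 and Epha4) differed by at most 12% between the group means. Of the 38 genes, 36 had enough counts to be tested, a number that takes in Epha8. Efna4 had 6, 5 and 6 counts in NS and 10, 3 and 8 in WS, and Epha1 had 6, 8 and 4 against 5, 6 and 4, both under the filter.

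Among the 35 tested members other than Epha8, 21 had a log2 fold change (WS over NS) above 0 and 14 below it. With the trend of each library on GC content and length removed the split was 15 above and 20 below, and without WS replicate 1 it was 13 and 22. The median was 0.01, the same as over all 13747 genes tested, of which 53% lay above 0. The range ran from -0.21 for Ntn4 to 0.47 for Epha2. 0 of the 35 passed the quasi-likelihood test of edgeR after Benjamini-Hochberg adjustment for every gene tested, the lowest adjusted p being 0.9998. At an unadjusted p under 0.05, 0 of the 35 passed by edgeR, by DESeq2 and by limma-trend alike, where 1.19% of all tested genes passed by edgeR (0.866% higher and 0.327% lower). At an adjusted p under 0.05 with a log2 fold change over 1, 0.0291% of all genes were called higher and 0% lower. The 95% interval of the fold change lay within 1.5-fold in either direction for 33 of the 35 and within 2-fold for 34, and it took in 0 on the log2 scale for all 35. Epha2 and Ntn5 had the wide intervals, 0.92 to 2.09 and 0.82 to 1.57. The median absolute log2 fold change was 0.12 for the 35 members against 0.07 for all genes, a difference that was not tested. The median GC content of the longest transcript was 55.1% over the 36 tested members, Epha8 included, and 50% over all genes.

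**Figure D1:**
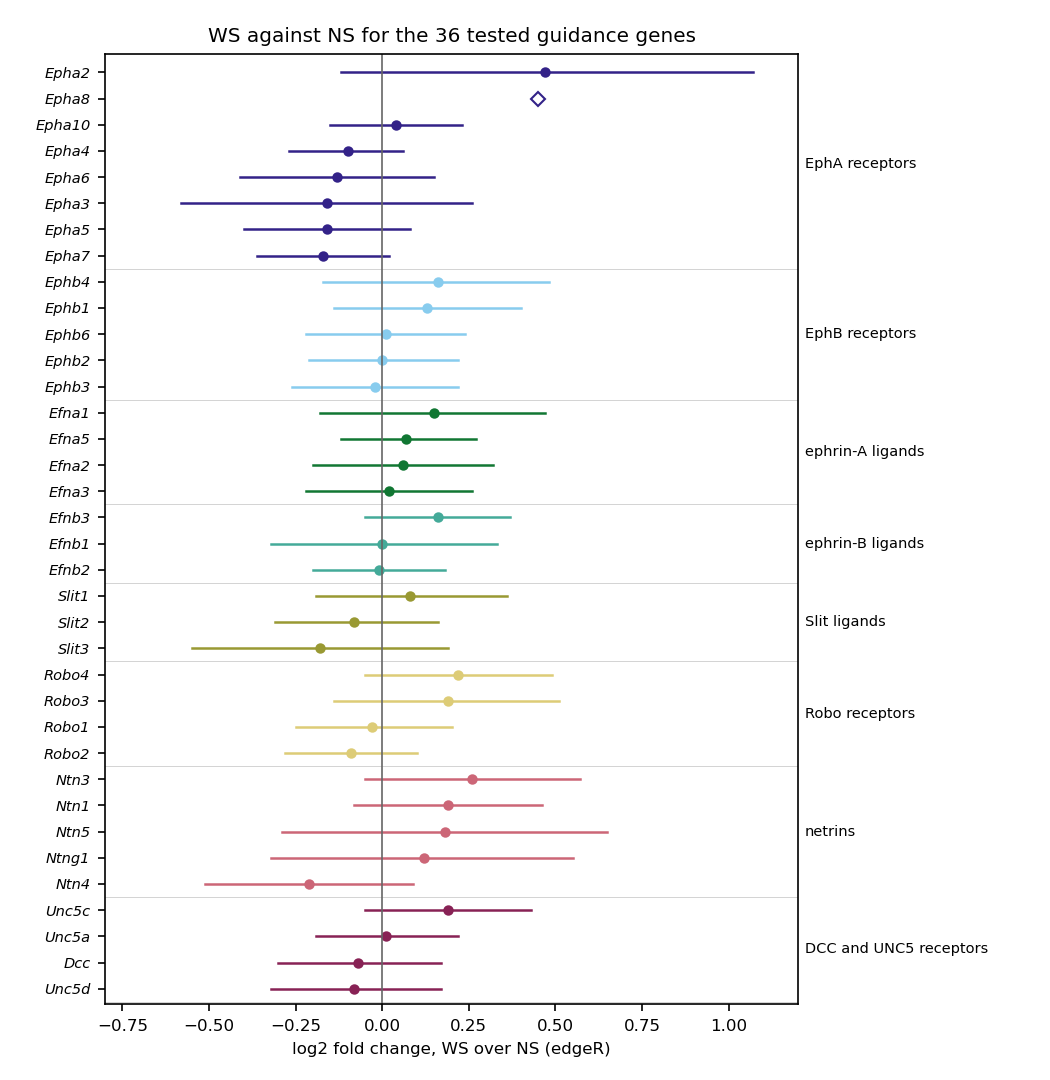
Log2 fold change of WS over NS (horizontal axis) for the 36 tested guidance genes by family, each point the edgeR estimate from 3 NS and 3 WS libraries and each line its 95% interval, with Epha8 as an open diamond and no interval. All 35 intervals cross 0, and the intervals of Epha2 and Ntn5 reach beyond 1.5-fold.

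Libraries of the groups did not overlap in 4 of the 36 tested members (11.1%): Epha8, Epha2 and Robo4 with every WS value above every NS value, and Epha7 below. Over all tested genes, 6.27% did not overlap, 3.11% with WS above and 3.16% with WS below. Epha8 is in this count through its choice. Taken as same-numbered pairs of libraries, 7 of the 36 were higher in WS in all 3 pairs (Efna1, Efnb3, Epha2, Epha8, Ntn1, Ntn3 and Robo4) and 2 lower (Epha4 and Epha7), where 9.82% of all tested genes were higher in all 3 and 8.57% lower. Epha8 is among these 7 through its choice as well. In the fit with the pairs as a block, 0 of the 35 members other than Epha8 passed an adjusted or unadjusted p under 0.05 (edgeR).

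Epha8, a class A Eph receptor that binds ephrin-A ligands, read 7.63, 8.18 and 7.89 CPM (counts scaled to the size of the library, with edgeR's TMM factors) in NS and 10.1, 10.1 and 12.1 in WS. The lowest WS library stood clear of the highest NS library, and WS replicate 3 was the highest of all. The counts behind these values were 121, 131 and 127 in NS against 171, 164 and 191 in WS. The means were 7.9 ± 0.274 in NS and 10.8 ± 1.11 CPM in WS (SD, n = 3 each), which on the log2 scale is a difference of 0.45. Leaving out each library in turn gave 0.36 to 0.49. The gene lies on chromosome 4 at 136929419 to 136956816 of GRCm38, minus strand, and shares no exon with another gene. Its neighbour Ephb2, 93.4 kb away on the same strand, read 27.7, 29.3 and 27.5 CPM in NS and 30.9, 25.7 and 27.9 in WS. The Ephb2 groups overlapped, with a log2 fold change of 0.00 ± 0.10 (SE).

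Epha2, a receptor best known for binding ephrin-A1, was among the rarest Eph mRNAs here. It read 1.01, 1.12 and 1.30 CPM in NS and 1.6, 1.86 and 1.33 in WS. NS replicate 3 and WS replicate 3 held the same count, 21, and stood apart only through the scaling by library. The log2 fold change was 0.47 ± 0.27 (SE, adjusted p = 0.9998, edgeR). Epha7, known for shaping cortical maps and dendrites, had the lower values in WS, with 54.7, 51.8 and 52.8 CPM in NS and 43.5, 48.9 and 49.1 in WS. WS replicate 1 was the lowest, and the means differed by 11.2% of the NS level. Its log2 fold change was -0.17 ± 0.09 (SE, adjusted p = 0.9998, unadjusted p = 0.071, edgeR), the lowest unadjusted p of the 35. The exact two-sided permutation test gave p = 0.10 for Epha2 and for Epha7, the smallest that 3 against 3 allows.

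**Figure D2:**
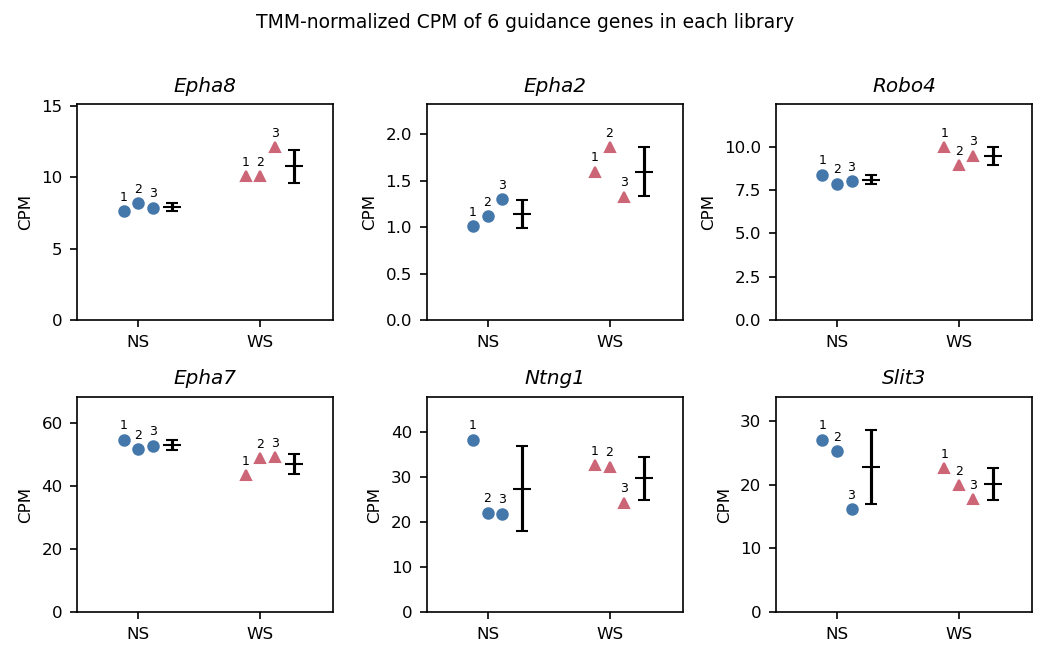
TMM-normalized CPM (vertical axes, from 0) of Epha8, Epha2, Robo4, Epha7, Ntng1 and Slit3 in each NS and WS library, numbered by replicate, with the mean and SD (n = 3) beside each group. Epha8 runs from 7.63 to 8.18 in NS and from 10.1 to 12.1 in WS, while for Ntng1 and Slit3 the spread within NS is wider than the difference between the means.

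Within the EphA receptors, Epha4 held the most RNA per length. Epha4, which binds ephrins of both classes and takes part in spine remodelling, read 187.1, 197.8 and 172.2 CPM in NS and 171.5, 177.7 and 169.7 in WS. The groups overlapped, at a log2 fold change of -0.10 ± 0.08 (SE). At 22.3 CPM per kilobase of merged exons over the 6 libraries, Epha4 made up 46.4% of the summed EphA level. Epha6 (7.63), Epha10 (6.50, a receptor without kinase activity), Epha7 (5.07) and Epha5 (3.52) followed, and Epha8 came sixth of 9 with 1.98 CPM per kb, from 1.62 in its lowest library to 2.56 in its highest. Epha3 (0.625), Epha2 (0.293) and Epha1 (0.0868) were far lower. The log2 fold changes were -0.13 for Epha6, -0.16 for Epha5 and Epha3, and 0.04 for Epha10. Of the 8 tested EphA receptors 3 lay above 0 and 5 below, with a median of -0.12. The values of Epha8 and Epha2 were 0.45 and 0.47, and those of the 6 others ran from -0.17 to 0.04, a range that the 95% interval of Epha2 (-0.12 to 1.07) reached into.

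Among the EphB receptors, Ephb6, whose kinase domain is inactive, was the most abundant, with 36.8 CPM per kb and 69.7% of the summed level. It read 117.4, 152.9 and 144.6 CPM in NS and 153.7, 135.2 and 129.6 in WS. NS replicate 1 was the lowest and NS replicate 2 close to the highest, so that the groups overlapped, at a log2 fold change of 0.01 ± 0.10 (SE). Ephb1, Ephb2 and Ephb3, which act at excitatory synapses, had log2 fold changes of 0.13, 0.00 and -0.02. Ephb4, the receptor of venous endothelium, had 0.16, from 126.5 counts on average. The median over the 5 was 0.01, and -0.04 with the trend on GC content removed.

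Of the ephrin-A ligands, Efna3, which is known from astrocytes that contact spines bearing EphA4, was the highest per length, with 28.7 CPM per kb and 56.6% of the sum. It read 70.7, 68.8 and 68.5 CPM in NS and 82.2, 69.5 and 59.0 in WS. WS replicates 1 and 3 lay on opposite sides of a tight NS group, and the log2 fold change was 0.02 ± 0.11 (SE). Efna5, a ligand that shapes the thalamic map in S1, followed with 12 CPM per kb and a log2 fold change of 0.07. Efna2 had 0.06 and Efna1, which endothelial cells express, 0.15. All 4 tested ephrin-A genes were above 0, none of them past a test, with a median of 0.07, but 3 with the trend on GC content removed and 2 without WS replicate 1. Efna1, Efna3 and Efna4 are neighbours on chromosome 3, with gaps of 32.8 and 10.4 kb. Among the ephrin-B ligands, Efnb3 led with 33.0 CPM per kb and 72.8% of the sum. Efnb3, a midline repellent that is also found at synapses, read 100.2, 104.7 and 92.1 CPM in NS and 112.9, 122.9 and 96.8 in WS. WS replicate 3 fell within the NS range, and the log2 fold change was 0.16 ± 0.10 (SE, adjusted p = 0.9998, edgeR). Efnb2, the arterial partner of Ephb4, had -0.01 and Efnb1 0.00.

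Slit1 was the most abundant Slit per length (7.72 CPM per kb, 60.5% of the sum). It read 50.5, 40.8 and 42.0 CPM in NS and 52.3, 38.9 and 49.8 in WS. These ranges lay nearly on top of each other, with a log2 fold change of 0.08 ± 0.12 (SE). Slit2 had -0.08 and Slit3 -0.18. Slit3, also known from vessels, read 27.0, 25.2 and 16.1 CPM in NS and 22.6, 19.9 and 17.7 in WS. NS replicate 3 was the lowest of the 6 libraries, and without it all WS values fell under NS. Robo2, a neuronal Slit receptor, made up 54.4% of the summed Robo level (6.76 CPM per kb). It read 125.1, 124.0 and 105.5 CPM in NS and 106.5, 108.9 and 118.5 in WS. NS replicate 3 was again lowest, and the log2 fold change was -0.09 ± 0.09 (SE). Robo1 had -0.03 and Robo3, a receptor of crossing axons, 0.19.

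Robo4, the Robo of endothelial cells, read 8.38, 7.86 and 8.01 CPM in NS and 9.95, 8.91 and 9.47 in WS. The lowest WS value exceeded the highest NS value. The means were 8.09 ± 0.268 and 9.44 ± 0.523 CPM (SD, n = 3 each), which is 16.8% higher in WS, at a log2 fold change of 0.22 ± 0.12 (SE, adjusted p = 0.9998, edgeR) and an exact two-sided permutation p of 0.10. Robo4 and Robo3 lie tail to tail on chromosome 9, with 0.553 kb between their ends, and the Robo3 groups overlapped. The summed CPM of 11 endothelial markers, like Robo4, did not overlap between the groups. It was 216.3 to 227.1 in NS and 241.5 to 277.4 in WS, with 11 of 11 above 0 and a median log2 fold change of 0.08. Without Pecam1, which had the highest log2 fold change of the list (0.87), the sums were 199.1 to 208.0 against 208.5 to 235.9. Within the groups the order differed, since Robo4 was highest in NS replicate 1 and WS replicate 1 and the sum of the 11 markers in NS replicate 3 and WS replicate 3. The part of these cells in the Robo4 values was not tested.

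The netrins were the family with the highest median log2 fold change, 0.18 over 5 genes, with 4 above 0 and none past a test. Without WS replicate 1 the median was 0.05, with 3 above 0. Ntn5 had the highest level per length, 3.56 CPM per kb or 26.7% of the summed level. It read 7, 6.62 and 8.57 CPM in NS and 11.6, 6.19 and 7.39 in WS. WS replicate 1 stood above all others, and without it the log2 fold change went from 0.18 to -0.12. Ntn3 read 10.7, 10.8 and 10.3 CPM in NS and 15.2, 12.4 and 10.5 in WS, again with WS replicate 1 on top, at a log2 fold change of 0.26, which was 0.11 without that library. Exons of Ntn3 overlap those of Tbc1d24 on the same strand and exons of Ntn5 those of Sec1 on the other strand, so their counts are uncertain where reads could be shared. In all, 9 of the 36 tested members share exon positions with a gene on the other strand (Efna3, Epha6, Epha10, Ephb1, Ephb4, Ntn3, Ntn5, Unc5a and Unc5c), and whether the counting used strand is not given in the sources used here. Ntn1, the founding netrin and an attractant through DCC, had 0.19, and Ntn4, a netrin of basement membranes, -0.21. Ntng1, a netrin anchored in the membrane of thalamic axons, read 38.3, 22.1 and 21.9 CPM in NS and 32.6, 32.3 and 24.3 in WS. NS replicate 1 was the highest, and without it the WS values all lay above NS and the log2 fold change went from 0.12 to 0.44. The 5 thalamus markers summed to 82.2 CPM in that library, the top of the NS range of 72.0 to 82.2. In WS their sum ran from 76.1 in replicate 1 to 92.7 in replicate 3, where Ntng1 had its lowest WS value, 24.3. The part of thalamic tissue in the Ntng1 values was not tested.

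Of the netrin receptors listed, Unc5a was by far the most abundant per length (36.7 CPM per kb, 82.4% of the DCC and UNC5 sum). Unc5b was not among the genes listed, so the order and the share leave it out. It read 148.2, 159.8 and 149.5 CPM in NS and 174.7, 151.2 and 135.3 in WS. The WS libraries spread to both sides of NS, at a log2 fold change of 0.01 ± 0.09 (SE). Unc5c had 0.19, Unc5d, known from precursors of upper-layer neurons, -0.08, and Dcc -0.07. Dcc was the least abundant of the 4, with 1.42 CPM per kb.

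Over all 38 genes, the levels per length ran from 36.8 CPM per kb for Ephb6 to 0.0868 for Epha1. Of the 37 pairs of neighbours in that order, 31 had overlapping ranges over the 6 libraries and 6 stood apart. Among the first 5 (Ephb6, Unc5a, Efnb3, Efna3, Epha4) every neighbouring pair overlapped, although Epha4 lay wholly below Ephb6, Unc5a and Efnb3, and a gap followed to Efna5. With the longest transcript in place of merged exons, 7 of 8 families kept the same highest gene, and among the netrins Ntng1 (5.12) passed Ntn5 (4.49).

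**Figure D3:**
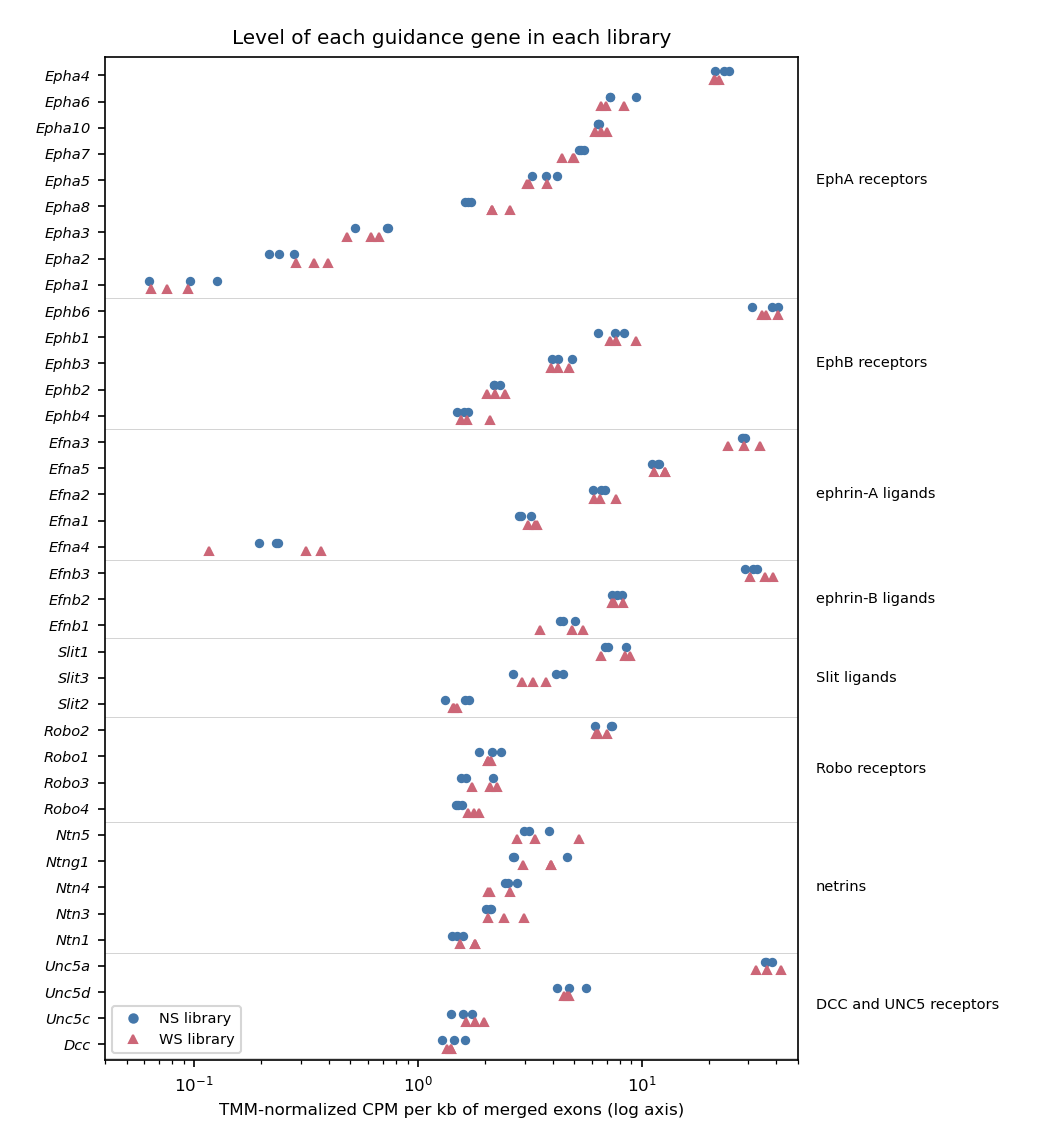
Level of each of the 38 guidance genes in TMM-normalized CPM per kb of merged exons (horizontal log axis), with 1 circle for each NS and 1 triangle for each WS library, grouped by family. Ephb6, Unc5a, Efnb3, Efna3 and Epha4 lie between 21.1 and 41.9 in every library, and circles and triangles are mixed for nearly all genes.

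Of the genes that work with these families, none passed the test either. Among 15 further cues and receptors (Neo1, Rgma, Rgmb, Draxin, Dscam, Dscaml1, Ntng2, Lrrc4, Lrrc4b, Lrrc4c, Flrt1, Flrt2, Flrt3, Gpc1 and Sdc3), 10 lay above 0 and 5 below, with a median log2 fold change of 0.04. The range was -0.14 (Flrt3) to 0.21 (Draxin), and 0 passed at an adjusted or unadjusted p under 0.05 (edgeR). Rgma, a repulsive cue for neogenin, was the only one of them whose groups did not overlap, with 79.1, 78.6 and 71.3 CPM in NS and 94.9, 86.2 and 79.5 in WS. Among 32 signal transducers downstream of the receptors, 15 lay above 0 and 17 below, with a median of -0.00 and 0 past an adjusted or unadjusted p under 0.05 (edgeR). They ran from -0.25 (Nck1, an adaptor) to 0.38 (Vav3, a guanine nucleotide exchange factor). The WS libraries lay above NS for 4 of the 32 (Vav3, Srgap1, Grip2 and Limk1) and below for 1 (Pak1), where 3.11% and 3.16% of all tested genes did so.

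By the ratio of the highest to the lowest of the 6 libraries in CPM, the 36 tested members ran from 1.12 (Efnb2) to 1.87 (Ntn5), with Epha2 at 1.84, Ntng1 at 1.75, Slit3 at 1.67 and Epha8 at 1.58. For Epha8 and Epha2 the lowest and highest libraries belonged to different groups, while for Slit3 and Ntng1 both were NS libraries and for Ntn5 both were WS libraries. Many members had their highest or lowest value in the same library, and in some libraries the deviations went with base composition. WS replicate 1 was the highest library for 14 of the 36 tested members, where it was the highest for 26.4% of all genes, and NS replicate 3 was the lowest for 11, where it was the lowest for 13.1%. Across the 36 members, the deviation of WS replicate 1 from the gene mean rose with the GC content of the longest transcript (Spearman correlation 0.78, across genes that share the same library, and 0.62 over all genes). In NS replicate 1 it fell (-0.60, and -0.22 over all genes). Over the members GC content and length were themselves related (-0.65), and the deviation of NS replicate 1 went with length at 0.50 and that of WS replicate 1 at -0.54. Of the 18 members with a GC content of 55% or more, 16 had a log2 fold change above 0, and of the 18 others 6. Epha8, chosen for its change, is among the 16 and in the member counts and correlations that follow. Without WS replicate 1, 7 of the 18 GC-rich members were above 0, and 10 with the trend on GC content and length removed from every library. Over all genes, 75.2% of those at 55% GC or more were above 0 and 46.1% of the others. The Spearman correlation of log2 fold change and GC content over the members was 0.57, against 0.37 with the trend removed and 0.15 without WS replicate 1. Epha8 had a GC content of 61.3%, and its log2 fold change with the trend removed was 0.39. For Epha2, Robo4 and Epha7 it was 0.43, 0.20 and -0.14. The part of base composition in these values was not tested beyond this.

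**Figure D4:**
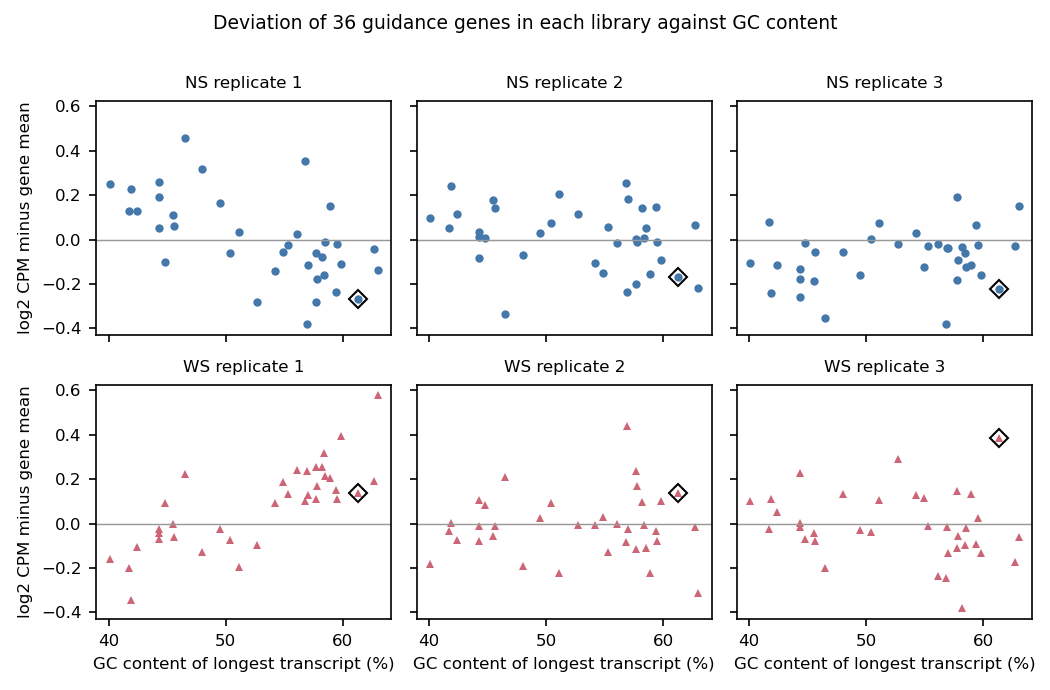
Deviation of each of the 36 tested guidance genes from its mean over the 6 libraries (vertical axis, log2 CPM) against the GC content of its longest transcript (horizontal axis, percent), with 1 panel for each library and Epha8 boxed by a diamond. The points of WS replicate 1 climb with GC content (Spearman correlation 0.78) and those of NS replicate 1 descend (-0.60).

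The tissue labels name neurons, astrocytes, endothelial cells, oligodendrocytes, pericytes and microglia, and markers of each were detected in every library. Besides the endothelial list, the summed CPM did not overlap between NS and WS for interneurons (912.1 to 940.1 against 969.2 to 1043.2, 5 of 6 above 0), pericytes (268.6 to 270.9 against 275.2 to 318.6, 6 of 8) and microglia (401.3 to 419.5 against 421.1 to 433.6, 5 of 6). The sums overlapped for oligodendrocytes (7 of 7 above 0, median log2 fold change 0.19), striatum (8 of 8, 0.15), thalamus (5 of 5, 0.13), astrocytes (8 of 8, 0.11), excitatory neurons (2 of 8, -0.03), hippocampus (1 of 3, -0.00) and choroid plexus (2 of 6, -0.09). Striatal markers were highest in WS replicate 2 (719.5 against 334.0 to 479.6 in the other libraries), and choroid plexus markers ran from 11.3 in WS replicate 1 to 104.4 in WS replicate 2. Spink8 of the hippocampus list and Ttr of the choroid plexus list were not among the genes listed, and no other marker was at 0 in any library. The part of these cells in the values of Epha8, Epha2 and Epha7 was not tested.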

How the data were processed

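Total RNA of S1 cortex from 3 NS and 3 WS samples was sequenced on the DNBseq platform. The authors removed reads of ribosomal RNA and of low quality, mapped the rest with HISAT2, and named mm10 in their processing notes; the counting tool and its use of strand are not given in the sources used here. The authors deposited, for each gene, the mean estimated count over the 6 libraries, and the SD of those counts (treated here as a signal, never negative). The deposited values of each library are z-scores, a score relative to that mean and SD. Counts were regained as mean plus z-score times SD and rounded. Of 13418 genes whose rounding error was under 0.1, 91% of values lay within 0.1 of a whole number, and all 6 did for 35 of the 38 members. The column of WS replicate 3 is headed 3NWS; it was taken as WS because the file's own WS mean is the mean of it and the other WS columns. A second deposited table, with the authors' fold changes and p-values, was not used.

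Totals were 15660395 to 17276168 counts per library, TMM factors 0.977 to 1.011, and the biological coefficient of variation 10.1%. No pair of libraries agreed within sampling noise (lowest chi-square per degree of freedom 4.29). WS was compared with NS by edgeR 4.0.16 (TMM, filterByExpr, quasi-likelihood test, Benjamini-Hochberg over 13747 genes; R 4.3.3), with a call needing an adjusted p below 0.05 together with a log2 difference beyond 1 in size; unadjusted p is given beside it. The code was tested on simulated data. Alternatives were other scalings and filters, DESeq2 1.42.0, limma-trend (limma 3.58.1), unrounded values, each library left out, and the replicate number as a block. Same-numbered NS and WS libraries deviated together (r = 0.34, 0.23 and 0.12 over 13747 genes), and the study's paradigm takes NS from the other side of the stimulated mouse, so the labels' numbers were read as pairing them, but the third r, just over the limit of 0.1, was 0.07 when genes averaging under 100 counts were dropped and 0.09 with no filter, so this reading depends on the filter, and both fits are given; the results of both fits had been seen by then. GENCODE M21 (GRCm38) gave positions, merged exons and GC content, and RefSeq gave promoters for 33 of 38 members.

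The members and all lists were chosen with earlier results of these data known. Values by library are given for Epha8, for members with an unadjusted p under 0.05, for members whose groups did not overlap with a log2 fold change over 0.1 in either direction, and for the member highest per length in each family. Ntng1, Slit3, Ntn3, Ephb2 and the pathway gene Rgma were added after their values were seen, as were the removal of the GC and length trend, the 55% split, the endothelial sum without Pecam1, the count by same-numbered pairs, the pairing check under other filters, the longest-transcript lengths, and the choice of promoters and motifs.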

Additional observations from a re-analysis of the deposited data

How the results depend on the processing

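Among the guidance genes other than Epha8, none passed an adjusted p under 0.05 in any alternative, and no test result is given for Epha8. With each library left out in turn, the count of members other than Epha8 at an unadjusted p under 0.05 (edgeR) ran from 0 to 2 higher and 0 to 2 lower: Ntng1 without NS replicate 1, Robo3 and Slit3 without NS replicate 3, Unc5c without WS replicate 1, and Efnb3, Ntn3, Epha5 and Ntn4 without WS replicate 3. The members whose groups did not overlap ran from 4 to 7 higher and 1 to 9 lower, where 5.78% to 9.91% and 5.54% to 10.4% of all genes did so in the same settings; the 9 came without NS replicate 3, at 7.27% of all genes. The median log2 fold change of the members ran from -0.036 to 0.051, and that of Epha8 from 0.36 to 0.491. Over all genes, calls at an adjusted p and fold ran from 0 (without NS replicate 2 or 3) to 6 higher and 0 to 1 lower (without WS replicate 3), and those at an unadjusted p from 90 to 319 higher and 22 to 291 lower.

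With the replicate block, Epha8 was at 0.445, no call of a member changed, and the genes at an unadjusted p went from 119 to 190 higher; DESeq2 gave 68 higher and 16 lower against 45 by edgeR, and a mean of at least 100 counts gave 27 lower. With the GC and length trend removed, 1 member (Unc5c) passed an unadjusted p higher and 5 did not overlap higher (Ntn1 and Ntn3 added; 3.43% of all genes), and with the block as well 1 passed higher and 1 lower (Epha5); over all genes 170 were then higher and 124 lower, and 315 higher and 170 lower with the block. Directions turned in that fit, without and with the block, for 6 of the 36 members, each within 0.0396 of 0 in the fit to all libraries: Efnb1, Epha10, Ephb2, Ephb6 (-0.049 and -0.042), Unc5a (-0.071 and -0.071) and Efna3 (-0.023 and -0.026). Leaving out a single library turned 16 of the 36, each within 0.182 of 0 in the fit to all libraries, among them Ephb6 (-0.092 to 0.091), Unc5a (-0.089 to 0.095), Efna3 (-0.11 to 0.129), Slit1 (-0.001 to 0.194) and Ntn5 (-0.124 to 0.352). The cause was not tested. Efna4, Epha1 and Epha2, with few counts, could show only large differences.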
